A study of Mus musculus with 8 samples.

Results

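Solute carriers are the membrane proteins that move amino acids, sugars, nucleosides, vitamins, metals, inorganic ions and nucleotide sugars across the plasma membrane and across the membranes of mitochondria, the endoplasmic reticulum, the Golgi and lysosomes. They were described here at the level of RNA in mouse embryonic fibroblasts 16 h after ultraviolet (UV) light. The members were genes with a symbol of the form Slc, family number, letter and member number that reached an FPKM of 1 or more in at least 1 of the 4 groups, so they were selected on these measured levels. FPKM are sequenced fragments per kilobase of transcript, scaled by the authors for library size. The rule left out 8 such genes: Slc2a1, Slc2a3, Slc3a2, Slc7a5, Slc7a11, Slc16a1, Slc16a3 and Slc30a1. This gave 156 members from 42 families, of 39175 genes in each deposited table. Another 196 genes with such symbols stayed under the minimum.

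The fibroblasts had a C57BL/6J background and came from 2 knockout genotypes. The groups were UV-treated p53-/-Cry1-/-Cry2-/- cells (UV p53CryKO), untreated p53-/-Cry1-/-Cry2-/- cells (untreated p53CryKO), UV-treated p53-/- cells (UV p53KO) and untreated p53-/- cells (untreated p53KO), with 2 biological replicates each. All 4 groups carry the p53-/- label, and no group had wild-type p53. UV-treated cells received 40 J/m2 from a germicidal lamp emitting mainly at 254 nm, and poly(A) RNA was sequenced. The labels do not say whether replicates came from separate embryos or whether a genotype was represented by more than 1 isolate. The authors' p-values are therefore read for these samples only. Whether they rest on each gene's own spread between replicates cannot be checked from values pooled over replicates.

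The expression of solute carriers is known to follow nutrient supply. Several amino acid carriers are induced when amino acids are scarce, zinc carriers of the SLC30 and SLC39 families move zinc in opposite directions, and the mitochondrial SLC25 carriers exchange ADP, ATP, phosphate and metabolites with the cytosol. Cryptochromes are repressors of the circadian clock and act on the CLOCK and BMAL1 factors, which bind E-box sequences of the form CACGTG in the promoters of clock-controlled genes.

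For 4 members the promoter is shown, because it holds that E-box and because the members were called in the same direction in both genotypes. Slc20a1, Slc30a5 and Slc25a13 fell after UV in both, and Slc1a6 rose in both. The 4 are not shown as typical of the rises or falls. They were picked after the values and the motif matches had been seen. A first pick by size of change alone held no E-box. Each sequence is the 250 bases before the RefSeq start on GRCm38.p6, read on the strand of the gene. Capitals mark CACGTG, which reads the same on both strands, and CCAAT or its reverse complement ATTGG.
Slc20a1, chr2:129198523-129198772, plus strand: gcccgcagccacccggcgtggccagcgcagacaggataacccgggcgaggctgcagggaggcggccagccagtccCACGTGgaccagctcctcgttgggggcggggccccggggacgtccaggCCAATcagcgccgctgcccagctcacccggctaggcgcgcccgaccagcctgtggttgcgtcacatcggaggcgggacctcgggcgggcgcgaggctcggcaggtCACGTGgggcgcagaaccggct
Slc30a5, chr13:100833428-100833677, minus strand: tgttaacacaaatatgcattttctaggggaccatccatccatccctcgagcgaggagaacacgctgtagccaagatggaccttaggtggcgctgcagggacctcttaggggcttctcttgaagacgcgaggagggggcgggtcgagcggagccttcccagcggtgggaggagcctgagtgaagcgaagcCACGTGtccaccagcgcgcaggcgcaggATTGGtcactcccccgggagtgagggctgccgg
Slc25a13, chr6:6217174-6217423, minus strand: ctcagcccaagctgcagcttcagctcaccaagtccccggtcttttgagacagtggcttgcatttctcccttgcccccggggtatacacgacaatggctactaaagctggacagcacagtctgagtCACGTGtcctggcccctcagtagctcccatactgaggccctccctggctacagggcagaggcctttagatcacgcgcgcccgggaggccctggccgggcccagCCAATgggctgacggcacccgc
Slc1a6, chr10:78780246-78780495, plus strand: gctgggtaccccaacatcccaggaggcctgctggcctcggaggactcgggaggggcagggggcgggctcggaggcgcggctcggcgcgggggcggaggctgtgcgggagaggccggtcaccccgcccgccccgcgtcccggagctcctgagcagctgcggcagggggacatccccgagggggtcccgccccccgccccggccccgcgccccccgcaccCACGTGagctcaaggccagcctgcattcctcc
The Slc20a1 window holds 2 CACGTG matches and the other windows hold 1 each. Over all 16522 RefSeq promoters, 8.09% held CACGTG and 38.8% held CCAAT on either strand within 300 bases around the start. RefSeq promoters were at hand for 120 of the 156 members (76.9%), below the 80% set for such a comparison, so a comparison of motif shares between members and other genes is void and is not given. A match describes these letters and is no evidence of binding.

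The deposited tables give 1 value per gene and group, pooled by the authors over the replicates, and total counts per sample are unknown. No SD can be given, and errors below are standard errors (SE) of the log2 fold change implied by the authors' test statistic. Their median over members was 0.31 in p53CryKO and 0.35 in p53KO cells. It exceeded 0.6 for 23 members in p53CryKO and 22 in p53KO cells. The authors' q does not always follow from this SE. Slc5a6 in p53KO cells had a log2 fold change of -2.04 with an SE of 1.19, and the authors' test gave it a q of 0.0109. In bulk RNA, fewer cells of a type and less RNA per cell cannot be told apart.

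Of the 10 fibroblast markers, 9 had an FPKM of 1 or more in all 4 groups, and Lum was at or near 0. Summed FPKM of 5 epithelial markers was 11.4 in UV p53CryKO, 8.30 in untreated p53CryKO, 0.188 in UV p53KO and 0.119 in untreated p53KO cells, nearly all from Krt14 and Cdh1. The 5 endothelial markers summed to 0.642 to 1.43 FPKM. The 4 leukocyte markers measured summed to 13.4 and 13.9 FPKM in UV p53CryKO and UV p53KO cells, against 7.08 and 5.95 in untreated p53CryKO and untreated p53KO cells, with the defining marker Ptprc near 0. That sum was mainly Cd68 after UV, at 11.3 and 12.5 FPKM in UV p53CryKO and UV p53KO cells, against 2.82 and 2.41 in untreated p53CryKO and untreated p53KO cells. Cd14 had 1.48 and 0.951 FPKM in UV p53CryKO and UV p53KO cells, against 3.98 and 3.40 in untreated p53CryKO and untreated p53KO cells. The part of these markers in the members' changes was not tested. The 5 neural markers summed to 12.6 and 14.7 FPKM after UV, against 46.4 and 51.3 in untreated cells, mostly from Tubb3. Trp53 was counted in every group at 78.8 FPKM or more, and Cry1 at 3.79 and 3.34 FPKM in UV and untreated p53CryKO cells. Cry2 had 1.097 and 4.54 FPKM in UV and untreated p53CryKO cells, and 0.488 and 2.44 in UV and untreated p53KO cells. The sources used here do not name the deleted exons, so gene-level FPKM does not check the genotype labels.

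In both genotypes, more solute carriers fell than rose after UV. Among the 156 members tested in p53CryKO cells, 21 were called higher and 74 lower, against a background of 60.7% of 12555 tested genes called, 29.5% higher and 31.2% lower. Among the 155 members tested in p53KO cells, 18 were called higher and 79 lower, against 59.2% of 12490 genes called, 28.2% higher and 31% lower. All 156 members are protein-coding. Over protein-coding genes with the same minimum, 27.1% were higher and 35.6% lower in p53CryKO cells, and 26.6% higher and 35.2% lower in p53KO cells. A call means that the authors' deposited table gives a q no greater than 0.05. The smallest q of a member in the authors' deposited table was 0.000161 in p53CryKO cells, shared by 62 members, and 0.000169 in p53KO cells, shared by 58 members. The share of members called in either direction, 60.9% and 62.6%, was near the background in both genotypes.

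The median log2 fold change of the members was -0.47 in p53CryKO and -0.70 in p53KO cells, beside 0.05 and 0.06 over all genes with the same minimum and -0.10 and -0.11 over protein-coding genes. These counts and medians describe the members and were not tested as a list. The minimum itself selects for change in part. For 17 members it was met in untreated cells only, and of these 16 were called lower in p53CryKO and 15 in p53KO cells. Slc2a10, Slc16a13, Slc19a2, Slc36a1, Slc35d1, Slc41a2, Slc26a2, Slc8b1 and Slc18a2, all described below, are among the 17, for which the choice of members itself favours a fall. Slc13a4 and Slc5a5 met it in UV-treated cells only. Among the 118 members at 1 FPKM or more in all 4 groups, 17 were called higher (14.4%) and 51 lower (43.2%) in p53CryKO cells, beside 32.6% and 29% of 9474 tested genes under the same rule. In p53KO cells 14 of them were called higher (11.9%) and 56 lower (47.5%), beside 31.4% and 28.6% of 9475 genes. These background genes include non-coding ones.

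Directions depend on the authors' scaling between conditions. Summed FPKM of protein-coding genes was 1074560 in UV and 529537 in untreated p53CryKO cells, and 1018530 in UV and 506401 in untreated p53KO cells. Setting these sums equal moves every log2 fold change down by 1.02 in p53CryKO and 1.01 in p53KO cells, and the median of all genes to -0.97 and -0.95. The authors' q does not apply to rescaled changes. Calls under equal sums therefore used a q recomputed from the change and its SE with the normal curve and Benjamini-Hochberg correction. Under that scaling, 0 members were called higher and 119 lower in p53CryKO cells, and 3 higher and 115 lower in p53KO cells. A recomputed q called fewer members higher even without rescaling, as given at the end, so these counts combine the scaling and the changed test. The split over all genes was then 4.13% higher and 52.8% lower in p53CryKO, and 4.48% higher and 48.9% lower in p53KO cells. The falls below keep their direction under both scalings by construction, since equal sums move every value down. No scaling that moves values up was run. Rises described as within the scaling shift turn into falls under equal sums.

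**Figure D1:**
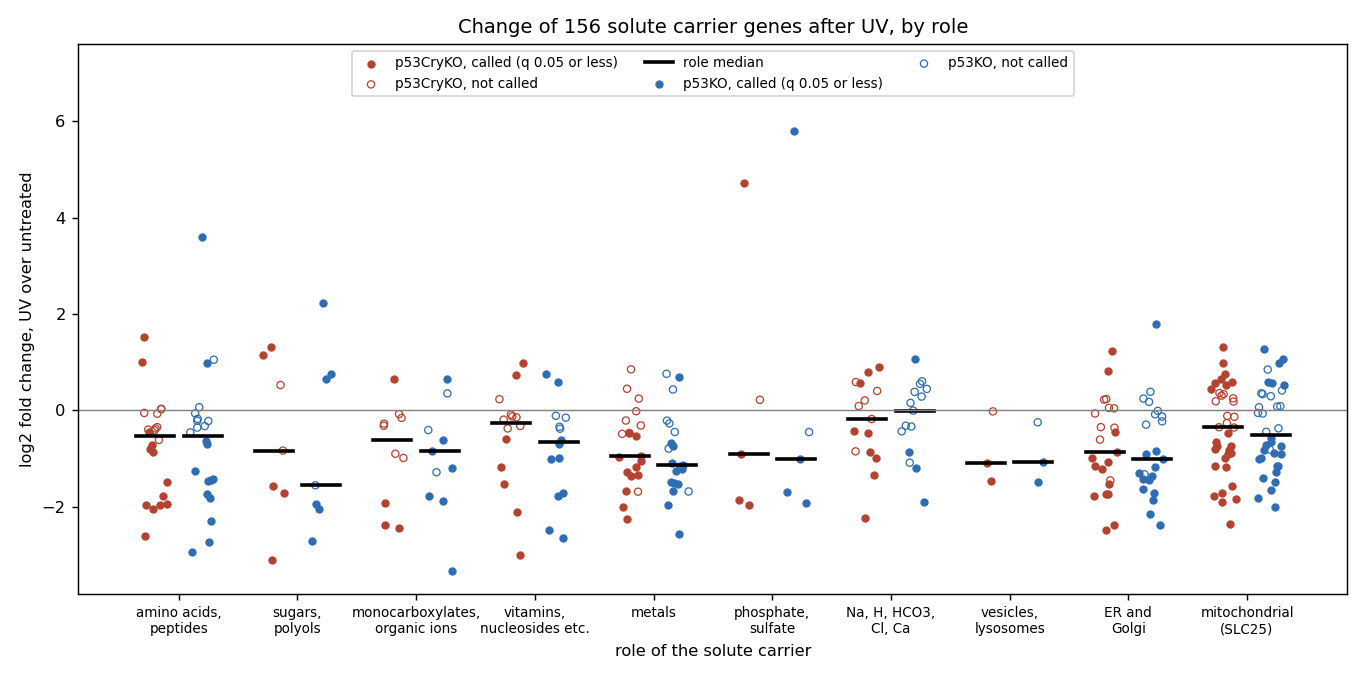
Log2 fold change of each solute carrier gene after UV (vertical axis), by role (horizontal axis), with p53CryKO left of p53KO in each role; filled points are called, open points are not, and black bars are role medians. More points lie below 0 than above it in every role and both genotypes; with summed coding FPKM set equal every point moves down by 1.02 in p53CryKO and 1.01 in p53KO cells, which turns most rises into falls.

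Of 22 carriers of amino acids and peptides, 11 (50%) fell and 2 (9.09%) rose in p53CryKO cells, and the same numbers were found in p53KO cells. Among protein-coding genes with the same minimum, 35.6% fell and 27.1% rose in p53CryKO cells, and 35.2% fell and 26.6% rose in p53KO cells. The median log2 fold change of the 22 was -0.53 and -0.54. Slc38a2, which encodes the sodium-coupled neutral amino acid carrier SNAT2, lies on GRCm38 chromosome 15 at 96687392 to 96699730. It had 13.3 FPKM in UV and 80.4 in untreated p53CryKO cells, and 13.4 in UV and 102.4 in untreated p53KO cells. It had the highest FPKM of the amino acid members in untreated cells, and its log2 fold change was -2.59 (SE 0.25) in p53CryKO and -2.94 (SE 0.29) in p53KO cells.

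Slc6a6, the taurine transporter, had 8.57 FPKM in UV and 32.96 in untreated p53CryKO cells, and 6.25 in UV and 41.5 in untreated p53KO cells. Slc7a6, a light chain that pairs with the Slc3a2 heavy chain to exchange cationic and neutral amino acids, had 6.96 and 19.6 FPKM in UV and untreated p53CryKO cells, and 5.53 and 27.1 in UV and untreated p53KO cells. Both fell in both genotypes. Slc7a1, the main cationic amino acid transporter of many cells, fell to 2.67 FPKM in UV p53CryKO cells, against 10.3 in untreated ones, and to 4.00 in UV p53KO cells, against 10.8 in untreated ones. Slc1a4, which carries alanine, serine and cysteine, Slc38a1, a glutamine carrier, and Slc36a1, a proton-coupled carrier of lysosomes, fell in both genotypes with log2 fold changes of -1.43 to -2.05. The glutamine transporter Slc1a5 was not called, with 20.5 FPKM in UV and 26.1 in untreated p53CryKO cells, and 36.6 in UV and 45.9 in untreated p53KO cells.

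The 2 amino acid carriers that rose were low in p53CryKO cells. Slc1a6, on chromosome 10 at 78780496 to 78814765, encodes the glutamate transporter EAAT4, known from cerebellar Purkinje cells. It had 0.442 FPKM in UV and 0.153 in untreated p53CryKO cells, and 12.98 in UV and 1.07 in untreated p53KO cells. The log2 fold change was 1.53 (SE 0.58) in p53CryKO and 3.60 (SE 0.34) in p53KO cells, and stayed above 0 under both scalings. Under equal sums it was called in p53KO cells and not in p53CryKO cells. Slc7a3, a cationic amino acid transporter, had 0.834 and 0.416 FPKM in UV and untreated p53CryKO cells, and 4.44 and 2.24 in UV and untreated p53KO cells. Its rises of 1.00 and 0.98 on the log2 scale were within the scaling shift.

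Of 7 members in the sugar and polyol families, 2 rose and 3 fell in p53CryKO cells, and 3 rose and 3 fell in p53KO cells. In p53CryKO cells this was 28.6% higher and 42.9% lower, beside 27.1% and 35.6% of protein-coding genes. In p53KO cells it was 42.9% and 42.9%, beside 26.6% and 35.2%. Slc2a10, a facilitative glucose transporter of the GLUT family, met the FPKM minimum in untreated cells only. It had 0.149 FPKM in UV and 1.28 in untreated p53CryKO cells, and 0.532 in UV and 3.47 in untreated p53KO cells, with log2 fold changes of -3.11 (SE 0.89) and -2.71 (SE 0.43). Slc45a4 fell to 1.64 FPKM in UV p53CryKO cells, against 5.36 in untreated ones, and to 1.78 in UV p53KO cells, against 6.83 in untreated ones. Slc5a6, which by family number stands here but carries biotin and pantothenate, also fell in both, with log2 fold changes of -1.56 (SE 0.75) and -2.04 (SE 1.19).

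Slc50a1, the mammalian member of the SWEET sugar carriers, had 58.9 FPKM in UV and 26.6 in untreated p53CryKO cells, and 63.6 in UV and 37.8 in untreated p53KO cells. Its rise of 1.14 in p53CryKO cells exceeded the scaling shift by less than 1 SE and was not called under equal sums, while that of 0.75 in p53KO cells was within it. Slc5a5, the iodide transporter of the thyroid, rose and was low in all groups, with 0.909 FPKM in UV and 0.364 in untreated p53CryKO cells, and 1.45 in UV and 0.308 in untreated p53KO cells.

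Of 10 carriers of monocarboxylates and organic ions tested in p53CryKO cells, 1 rose and 3 fell, and of 9 tested in p53KO cells, 1 rose and 6 fell. As shares, 10% rose and 30% fell in p53CryKO cells, beside 27.1% and 35.6% of protein-coding genes. The p53KO shares were 11.1% and 66.7%, beside 26.6% and 35.2%. Slc16a13, a member of the monocarboxylate transporter family that met the minimum in untreated cells only, had 0.524 FPKM in UV and 2.83 in untreated p53CryKO cells, and 0.362 in UV and 3.63 in untreated p53KO cells. Its log2 fold change was -2.44 (SE 0.63) in p53CryKO and -3.33 (SE 0.70) in p53KO cells. Slc10a7 fell to 1.28 FPKM in UV p53CryKO cells, against 4.84 in untreated ones, and to 2.78 in UV p53KO cells, against 10.2 in untreated ones. The carnitine transporter Slc22a5 fell in p53KO cells, with 1.18 FPKM after UV against 2.11, and was not called in p53CryKO cells, with 1.69 against 2.11.

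Among 14 carriers of vitamins, nucleosides, choline, haem and fatty acids, 2 rose and 5 fell in p53CryKO cells, and 2 rose and 8 fell in p53KO cells. As shares, 14.3% rose and 35.7% fell in p53CryKO cells, beside 27.1% and 35.6% of protein-coding genes. The p53KO shares were 14.3% and 57.1%, beside 26.6% and 35.2%. The thiamine transporter Slc19a2 had 0.332 FPKM in UV and 2.65 in untreated p53CryKO cells, and 0.645 in UV and 4.02 in untreated p53KO cells. Its log2 fold changes were -3.00 (SE 0.53) and -2.64 (SE 0.40), and it too met the minimum in untreated cells only. The ascorbate transporter Slc23a2 fell by 1.17 and 1.72 on the log2 scale. The folate carrier Slc19a1 fell in p53KO cells, with 16.7 FPKM after UV against 25.4, and was not called in p53CryKO cells, with 22.4 against 25.6.

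The equilibrative nucleoside transporters moved in both directions. Slc29a1, which encodes ENT1, had 277.4 FPKM in UV and 139.5 in untreated p53CryKO cells, and 257.7 in UV and 171.0 in untreated p53KO cells. Its log2 fold changes of 0.99 and 0.59 were within the scaling shift. Slc29a2, which encodes ENT2, had 1.23 FPKM in UV and 5.29 in untreated p53CryKO cells, and 0.748 in UV and 4.16 in untreated p53KO cells. The lysosomal Slc29a3 also fell, by 1.53 and 1.78 on the log2 scale. Whatever the scaling, the level of Slc29a1 relative to Slc29a2 was higher after UV in both genotypes, because a common scale factor cancels in that ratio. Slc48a1, a haem transporter of endosomes and lysosomes, had 86.96 and 51.99 FPKM in UV and untreated p53CryKO cells, and 66.7 and 39.7 in UV and untreated p53KO cells, rises within the scaling shift.

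**Figure D2:**
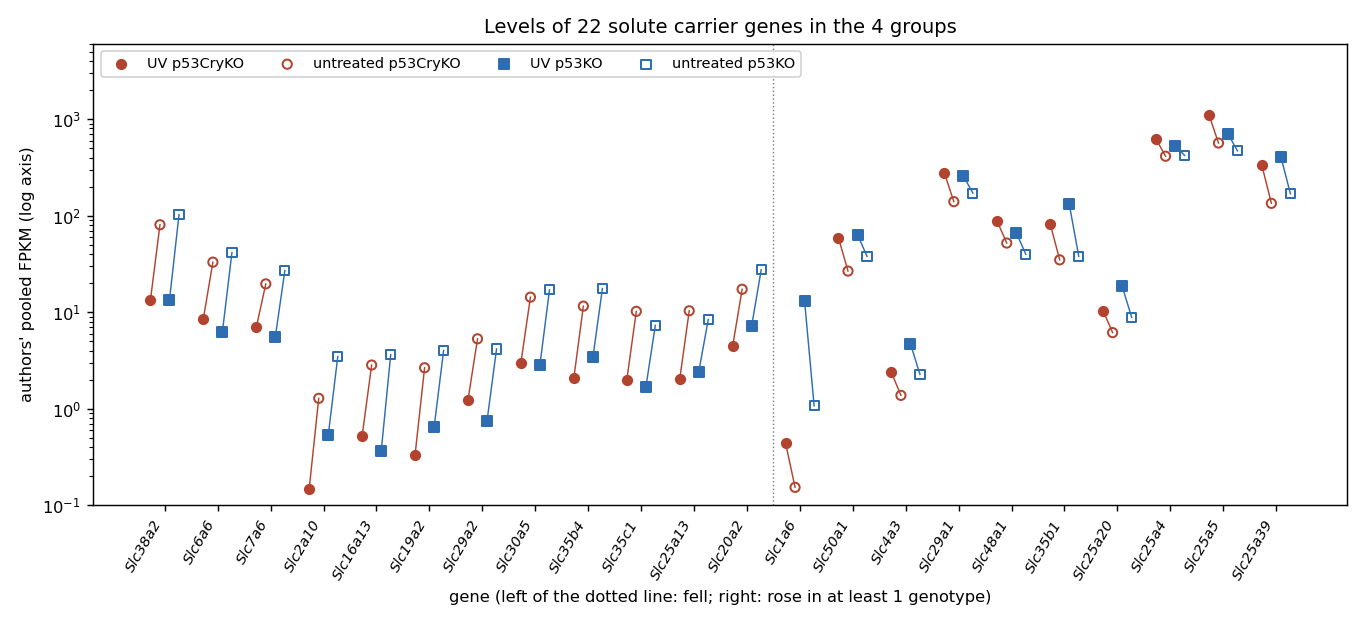
Pooled FPKM (vertical log axis) of 22 named solute carriers in UV p53CryKO, untreated p53CryKO, UV p53KO and untreated p53KO cells; lines join UV and untreated cells of a genotype, and genes right of the dotted line rose in at least 1 genotype. Slc38a2 lies at 13.3 and 13.4 FPKM after UV and at 80.4 and 102.4 untreated; with summed coding FPKM set equal, Slc4a3, Slc29a1, Slc48a1, Slc25a20, Slc25a4 and Slc25a5 fall in p53CryKO, and Slc50a1, Slc29a1, Slc48a1, Slc25a4 and Slc25a5 fall in p53KO cells.

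Metal carriers fell more often than they rose, with 12 of 21 lower and 0 higher in p53CryKO, and 13 lower and 1 higher in p53KO cells. In p53CryKO cells this was 57.1% lower and 0% higher, beside 35.6% and 27.1% of protein-coding genes. In p53KO cells it was 61.9% and 4.76%, beside 35.2% and 26.6%. The medians of the metal carriers were -0.94 and -1.13. Slc30a5, whose product ZnT5 brings zinc into the secretory pathway and is shown above with its promoter, had 2.997 FPKM in UV and 14.3 in untreated p53CryKO cells, and 2.86 in UV and 17.03 in untreated p53KO cells. The log2 fold changes were -2.25 (SE 0.27) and -2.57 (SE 0.29). Slc30a6, which encodes the partner ZnT6, fell to 3.96 and 3.27 FPKM in UV p53CryKO and UV p53KO cells, against 9.61 and 10.4 in untreated p53CryKO and untreated p53KO cells. Slc30a4 and Slc30a7 of the same family also fell in both genotypes.

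The SLC39 carriers bring zinc into the cytosol. Of 10 members, 5 (50%) fell in p53CryKO and 4 (40%) in p53KO cells, beside 35.6% and 35.2% of protein-coding genes. In both genotypes 0 of the 10 rose, beside 27.1% and 26.6% of protein-coding genes. Slc39a14, which also carries iron, fell by 1.36 and 1.52 on the log2 scale, and Slc39a6 and Slc39a10 fell by 0.94 to 1.21. Slc39a7, the zinc carrier of the endoplasmic reticulum and the most abundant metal carrier, was not called, with 135.5 FPKM in UV and 114.3 in untreated p53CryKO cells, and 185.7 in UV and 137.4 in untreated p53KO cells. The magnesium carriers Slc41a1 and Slc41a2 fell in both genotypes. Slc41a1 changed by -1.34 and -1.48 on the log2 scale. The copper importer Slc31a1 was not called, with log2 fold changes of -0.21 (SE 0.30) and -0.21 (SE 0.34). The iron importer Slc11a2 fell in p53KO cells, with 12.4 FPKM after UV against 20.5, and had 11.4 against 16.0 in p53CryKO cells without a call. Slc30a9 was the 1 metal carrier called higher in p53KO cells, with 21.3 FPKM after UV against 13.2, a rise within the scaling shift.

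Both sodium-phosphate cotransporters fell. Slc20a2, which encodes PiT2, had 4.42 FPKM in UV and 17.3 in untreated p53CryKO cells, and 7.20 in UV and 27.5 in untreated p53KO cells. Slc20a1, which encodes PiT1, had 10.1 and 18.98 FPKM in UV and untreated p53CryKO cells, and 11.7 and 23.3 in UV and untreated p53KO cells. Slc26a2, a sulfate transporter known for its role in the sulfation of cartilage proteoglycans, fell by 1.87 and 1.69 on the log2 scale. Slc13a4, another sulfate transporter, was called higher in both genotypes and met the minimum in UV-treated cells only. It had 0.445 FPKM in UV and 0.0169 in untreated p53CryKO cells, and 1.21 in UV and 0.0217 in untreated p53KO cells. The SE of 3.08 and 2.63 beside log2 fold changes of 4.72 and 5.81 leaves its size poorly determined.

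Among 15 carriers of sodium, protons, bicarbonate, chloride and calcium, 3 rose and 6 fell in p53CryKO cells, and 1 rose and 3 fell in p53KO cells. As shares, 20% rose and 40% fell in p53CryKO cells, beside 27.1% and 35.6% of protein-coding genes. The p53KO shares were 6.67% and 20%, both below the 26.6% and 35.2% of protein-coding genes. The sodium-potassium-chloride cotransporter Slc12a2 fell by 0.48 and 0.86 on the log2 scale. Slc8b1, the sodium-calcium exchanger of mitochondria, fell by 2.24 and 1.89. The anion exchanger Slc4a3 rose in both, with 2.37 FPKM in UV and 1.37 in untreated p53CryKO cells, and 4.71 in UV and 2.26 in untreated p53KO cells. The rise in p53CryKO cells was within the scaling shift. That of 1.06 (SE 0.47) in p53KO cells exceeded it by less than 1 SE and was not called under equal sums. Slc4a2, another anion exchanger, was called higher in p53CryKO cells, with 31.5 FPKM after UV against 16.8, a rise within the scaling shift, and had 27.3 against 18.0 in p53KO cells without a call.

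Of 3 carriers of vesicles and lysosomes, 2 (66.7%) fell in each genotype, beside 35.6% of protein-coding genes in p53CryKO and 35.2% in p53KO cells. The 2 were the vesicular monoamine transporter Slc18a2, with log2 fold changes of -1.47 and -1.07, and Slc18b1, with -1.09 and -1.49. The lysosomal sialic acid exporter Slc17a5 was not called.

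Carriers of the endoplasmic reticulum and Golgi numbered 23, of which 2 rose and 12 fell in p53CryKO cells, and 1 rose and 13 fell in p53KO cells. As shares, 8.70% rose and 52.2% fell in p53CryKO cells, beside 27.1% and 35.6% of protein-coding genes. The p53KO shares were 4.35% and 56.5%, beside 26.6% and 35.2%. Most of the 23 belong to family 35, which brings nucleotide sugars and related donors into these compartments for glycosylation and sulfation. Slc35b4, which carries UDP-xylose and UDP-N-acetylglucosamine, had 2.08 FPKM in UV and 11.5 in untreated p53CryKO cells, and 3.41 in UV and 17.6 in untreated p53KO cells. Slc35c1, the GDP-fucose transporter of the Golgi, had 1.97 and 10.2 FPKM in UV and untreated p53CryKO cells, and 1.66 and 7.32 in UV and untreated p53KO cells. Slc35d1, which serves chondroitin sulfate synthesis, and Slc33a1, which brings acetyl-CoA into the endoplasmic reticulum, fell by 1.45 to 1.74 on the log2 scale.

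Other members of family 35 were not called. The UDP-galactose transporter Slc35a2 had 12.5 FPKM in UV and 12.02 in untreated p53CryKO cells, and 14.99 in UV and 13.3 in untreated p53KO cells. Slc35b2, which carries the sulfate donor PAPS, had 26.9 and 23.1 FPKM in UV and untreated p53CryKO cells, and 26.4 and 26.6 in UV and untreated p53KO cells. The CMP-sialic acid transporter Slc35a1 was not called in either genotype. Slc35b1, on chromosome 11 at 95384692 to 95391776 and described as the ATP and ADP exchanger of the endoplasmic reticulum, had 82.4 FPKM in UV and 34.8 in untreated p53CryKO cells, and 132.0 in UV and 37.9 in untreated p53KO cells. Its log2 fold changes were 1.24 (SE 0.25) and 1.80 (SE 0.29), above the scaling shift in both, and under equal sums the gene was called in p53KO cells and not in p53CryKO cells. Within this compartment, the range after UV thus ran from log2 fold changes of -2.47 to 1.24 in p53CryKO and of -2.37 to 1.80 in p53KO cells.

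The mitochondrial carriers of family 25 were the largest group, with 36 members. In p53CryKO cells 8 (22.2%) rose and 17 (47.2%) fell, and in p53KO cells 6 (16.7%) rose and 17 (47.2%) fell. Among protein-coding genes 27.1% rose and 35.6% fell in p53CryKO cells, and 26.6% rose and 35.2% fell in p53KO cells. The 4 members of highest level belong to family 25. Slc25a5, on chromosome X at 36795651 to 36798807, encodes the ADP and ATP carrier ANT2. It had 1109 FPKM in UV and 565.1 in untreated p53CryKO cells, and 701.0 in UV and 468.5 in untreated p53KO cells. Slc25a4, which encodes ANT1, had 622.2 and 412.5 FPKM in UV and untreated p53CryKO cells, and 530.6 and 420.1 in UV and untreated p53KO cells, with a call in p53CryKO cells and none in p53KO cells. The phosphate carrier Slc25a3 had 598.3 and 440.2 FPKM in UV and untreated p53CryKO cells, again called, and 346.5 and 326.2 in UV and untreated p53KO cells, not called. The rises of Slc25a5, Slc25a4 and Slc25a3 were within the scaling shift, and the test of the genotypes below called none of them.

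Slc25a39, on chromosome 11 at 102402985 to 102407946 and known as a mitochondrial glutathione importer, had 331.3 FPKM in UV and 134.0 in untreated p53CryKO cells, and 404.7 in UV and 168.1 in untreated p53KO cells. Its log2 fold changes of 1.31 (SE 0.27) and 1.27 (SE 0.32) were above the scaling shift by about 1 SE or less, and under equal sums neither was called. The acylcarnitine carrier Slc25a20 had 10.3 and 6.14 FPKM in UV and untreated p53CryKO cells, and 18.6 and 8.84 in UV and untreated p53KO cells. Its rise was within the scaling shift in p53CryKO and exceeded it by less than 1 SE in p53KO cells.

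The falls in family 25 covered carriers of several substrates. Slc25a13, the aspartate and glutamate carrier citrin, had 2.01 FPKM in UV and 10.3 in untreated p53CryKO cells, and 2.40 in UV and 8.40 in untreated p53KO cells. The related Slc25a12 fell by 0.82 and 0.91 on the log2 scale. Slc25a28 and Slc25a37, the mitoferrins that import iron, fell in both genotypes, Slc25a28 to 6.74 and 7.31 FPKM in UV p53CryKO and UV p53KO cells, against 23.2 and 19.4 in untreated p53CryKO and untreated p53KO cells. The folate carrier Slc25a32, the branched-chain amino acid carrier Slc25a44 and the uncoupling protein relatives Slc25a14 and Slc25a30 fell by 1.28 to 2.01. The NAD carrier Slc25a51 fell by 1.17 and 0.72. The citrate carrier Slc25a1 was not called, with 22.3 FPKM in UV and 19.6 in untreated p53CryKO cells, and 34.9 in UV and 36.5 in untreated p53KO cells.

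FPKM summed over the members was 4310 in UV and 3277 in untreated p53CryKO cells, and 3782 in UV and 3405 in untreated p53KO cells. The 6 members of highest level held 71.3% of that sum in UV and 55.1% in untreated p53CryKO cells, and 64.2% in UV and 49.7% in untreated p53KO cells. Of the FPKM of all protein-coding genes, the members held 0.401% in UV and 0.619% in untreated p53CryKO cells, and 0.371% in UV and 0.672% in untreated p53KO cells. The median member had 3.03 and 5.34 FPKM in UV and untreated p53CryKO cells, and 3.64 and 6.36 in UV and untreated p53KO cells.

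The change after UV varied with the level of a gene, both among members and among all genes. Members with a mean FPKM of 15 or more, 32 in number, had medians of 0.20 in p53CryKO and 0.03 in p53KO cells on the log2 scale, beside 0.51 and 0.52 for all genes of that level. The 36 members with a mean of 2 to 5 FPKM had medians of -0.94 and -1.16, beside -0.50 and -0.51. The members' median was the lower one in all 4 ranges of level and in both genotypes, which describes these genes and was not tested. The genes set beside them here include non-coding ones, while all members are protein-coding.

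**Figure D3:**
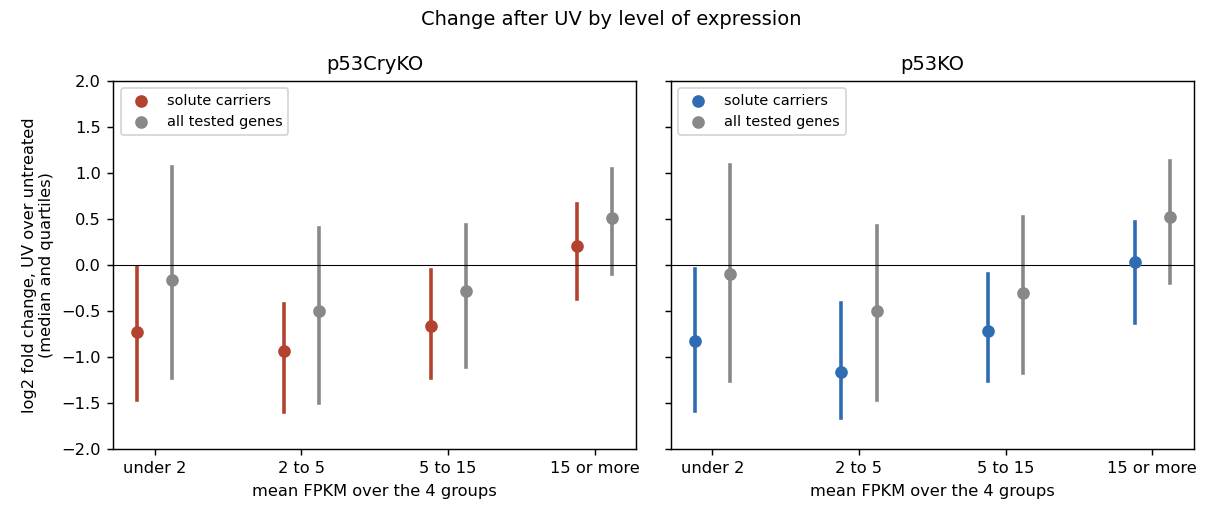
Median log2 fold change after UV (points) with quartiles (bars) in 4 ranges of mean FPKM (horizontal axis), for solute carriers in colour and all tested genes in grey, p53CryKO left and p53KO right. The solute carriers' median is lower in each range, and in the highest range it is 0.20 and 0.03, beside 0.51 and 0.52 for all genes; equal coding sums move all values down by 1.02 and 1.01, which puts every median below 0.

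Gene size varied with the change as well. The 14 members higher in both genotypes had a median exonic length of 2842 bases and a median span of 12000 bases, and the 67 members lower in both had 5349 and 29850 bases. Across members, Spearman's rho of the log2 fold change with exonic length was -0.25 in p53CryKO (n = 156 genes) and -0.17 in p53KO cells (n = 155 genes), beside -0.30 and -0.25 over protein-coding genes. These are descriptions across genes of the same libraries. In members spanning 50000 bases or more, 22 of 36 fell and 0 rose in p53CryKO cells, and 17 of 35 fell and 1 rose in p53KO cells. As shares these were 61.1% lower in p53CryKO and 48.6% lower in p53KO cells, beside 43.1% lower and 16.3% higher in p53CryKO and 41.2% lower and 18.0% higher in p53KO cells among all protein-coding genes of that span. The part that length has in the falls was not tested beyond the alternative with a length trend removed, which left the medians at -0.38 and -0.51.

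The comparison of both genotypes asks whether loss of the cryptochromes changed the response. Of 155 members tested in both, 14 (9.03%) were higher in both and 67 (43.2%) lower in both, beside 24.2% and 27.3% of 12406 genes. Opposite calls were made for 0 members, beside 21 of all genes (0.169%). Calls in 1 genotype alone were made for 13 members in p53CryKO (8.39%) and 16 in p53KO cells (10.3%), near the 9.34% and 7.71% of all genes. Across the members Pearson's r of the paired log2 fold changes was 0.92 and Spearman's rho 0.91, beside 0.92 and 0.93 over 12406 genes. The response of p53CryKO minus that of p53KO cells was divided by the implied SE of this difference and referred to the normal curve. After Benjamini-Hochberg correction across 12300 genes it passed 0.05 for 0 members, beside 22 of all genes (0.179%). At an unadjusted p under 0.05 it held 5 members (3.23%), near the 3.03% of all genes. As fractions both lie below 0.05, the share expected with no difference, so the test may be too strict. That 0 members passed therefore does not show equal responses.

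The 5 are given as values. Slc1a6 had a difference of -2.07 (SE 0.68), p53CryKO minus p53KO, with an adjusted p of 0.341. Slc39a1, a zinc importer of the plasma membrane, had 26.2 FPKM in UV and 36.2 in untreated p53CryKO cells, and 17.8 in UV and 50.8 in untreated p53KO cells, a difference of 1.04 with an adjusted p of 0.565. Slc6a6 and Slc7a6, described above, each had a difference of 0.79. Slc24a3, a potassium-dependent sodium-calcium exchanger, fell in p53CryKO cells, with 1.90 FPKM in UV against 4.81 in untreated cells, and was not called in p53KO cells, with 0.530 FPKM in UV against 0.406 in untreated cells. The median SE of a difference over the members was 0.48. Even the difference of -2.07 for Slc1a6 did not pass, so differences well above 1 SE could go undetected.

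**Figure D4:**
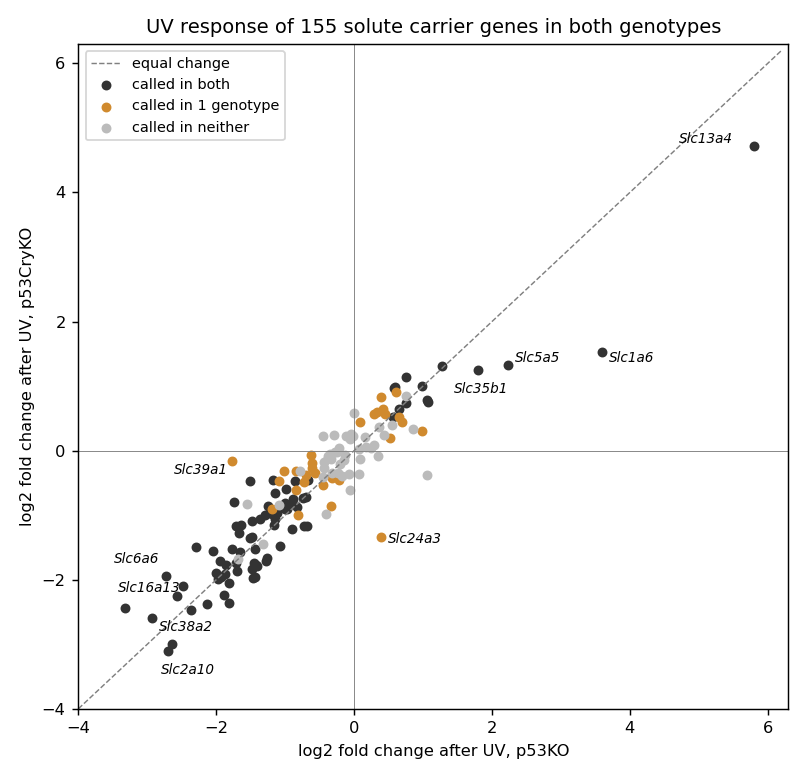
Log2 fold change after UV in p53CryKO (vertical axis) against p53KO cells (horizontal axis) for 155 solute carriers, coloured by the number of genotypes in which the gene is called; the dashed line marks equal change. The genes follow the line, with 14 called higher and 67 called lower in both, and among the genes farther from it are Slc1a6 and Slc24a3; with equal coding sums all points move down and left by about 1, so most rises become falls.

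Levels between genotypes can only be set side by side, because the authors normalized each genotype in its own table, and no test was made. Among untreated cells, 21 of 156 members (13.5%) differed 2-fold or more, 7 higher and 14 lower in p53CryKO cells, beside 14.3% of all genes. After UV it was 27 (17.3%), 10 higher and 17 lower, beside 18.6%. Of the 21, 20 differed 2-fold or more in the same direction after UV. That share was not computed over all genes, so it is not read as a trait of the members.

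Slc38a4, a neutral amino acid transporter known to be imprinted in the mouse, had 1.23 FPKM in UV p53CryKO against 22.1 in UV p53KO cells, and 2.02 in untreated p53CryKO against 35.9 in untreated p53KO cells. It lies on chromosome 15 at 96994820 to 97055956. Slc1a6 and Slc7a3 were also lower in p53CryKO cells in both conditions, Slc7a3 5.33-fold after UV and 5.40-fold in untreated cells. Both met the FPKM minimum in p53KO cells only, so the choice of members itself favours this direction. Slc6a9, a glycine transporter, had 2.53 FPKM in UV p53CryKO against 8.13 in UV p53KO cells, and 3.87 in untreated p53CryKO against 8.49 in untreated p53KO cells.

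The choline transporter Slc44a1, on chromosome 4 at 53440413 to 53622478, was higher in p53CryKO cells, with 17.5 FPKM in UV p53CryKO against 4.63 in UV p53KO cells, and 19.1 in untreated p53CryKO against 5.85 in untreated p53KO cells. Slc39a8, a carrier of zinc and manganese, had 5.15 against 1.90 FPKM after UV, and 5.21 against 2.30 in untreated cells, each p53CryKO against p53KO. Slc24a3 was 11.8-fold higher in untreated p53CryKO than in untreated p53KO cells and 3.60-fold higher after UV. It met the minimum in p53CryKO cells only, so the choice of members favours this direction too. The epithelial markers Krt14 and Cdh1 moved with the genotype as well, with the summed levels given above, and their part in these ratios was not tested.

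**Figure D5:**
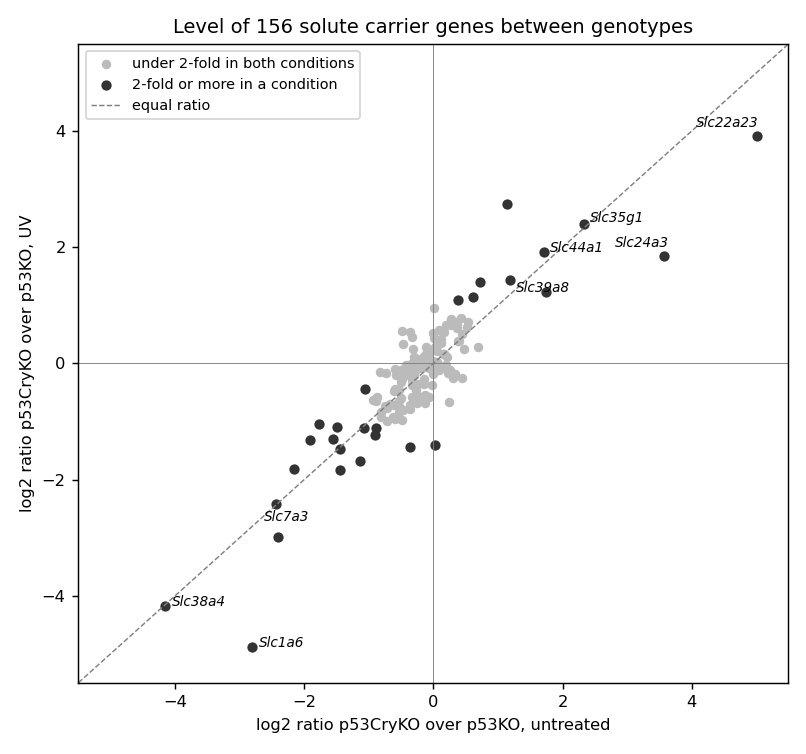
Log2 ratio of FPKM in p53CryKO over p53KO for UV-treated cells (vertical axis) against untreated cells (horizontal axis), 156 solute carriers; black points differ 2-fold or more in a condition and the dashed line marks equal ratios. Slc38a4 lies lowest among untreated cells and Slc22a23, just above the FPKM minimum in 1 group, highest; the genotypes were normalized in separate tables.

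Of the 8 excepted solute carriers, 1 rose and 4 fell in p53CryKO cells, and 2 rose and 3 fell in p53KO cells. As shares, 12.5% rose and 50% fell in p53CryKO cells, beside 27.1% and 35.6% of protein-coding genes. The p53KO shares were 25% and 37.5%, near the 26.6% and 35.2% of protein-coding genes. The glucose transporter Slc2a1 had 2.36 FPKM in UV and 20.5 in untreated p53CryKO cells, and 2.43 in UV and 25.8 in untreated p53KO cells. Slc3a2, the heavy chain that pairs with Slc7a6 and other light chains, had 179.0 FPKM in UV and 102.8 in untreated p53CryKO cells, and 303.5 in UV and 119.1 in untreated p53KO cells, and the rise in p53CryKO cells was within the scaling shift.

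Of 34 solute carrier relatives and partners with other names at 1 FPKM or more, 10 rose and 10 fell in p53CryKO cells, and 11 rose and 12 fell in p53KO cells. These shares, 29.4% higher and 29.4% lower in p53CryKO and 32.4% higher and 35.3% lower in p53KO cells, were near those of all genes given above. The mitochondrial pyruvate carrier subunit Mpc2 had 99.1 FPKM in UV and 30.9 in untreated p53CryKO cells, and 109.1 in UV and 34.1 in untreated p53KO cells. Bsg, a partner of monocarboxylate transporters, rose by 1.52 and 1.62 on the log2 scale. Mfsd2a, a lysophospholipid transporter, fell by 3.07 and 2.93, and the Golgi protein Tmem165 fell by 2.31 and 2.91.

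The members nearest to the minimum were Slc26a2, with a highest value of 1.03 FPKM, Slc14a1 with 1.09 and Slc22a23 with 1.11. Just below it were Slc16a10 with 0.960, Slc25a29 with 0.955 and Slc26a6 with 0.931. Reads of 10 members may be shared with a copy elsewhere that is at least 90% identical over 500 bases or more, among them Slc25a5 with 6 such copies, Slc38a6, Slc39a1, Slc35a4 and Slc5a6. Another 4 members, Slc35a3, Slc10a3 and Slc5a3 among them, overlap a coding gene on the same strand, and 22 overlap one on the other strand, including Slc4a2, Slc48a1 and Slc11a2. The sources used here do not say whether the authors' counting used strand, so the values of these members are uncertain.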

How the data were processed

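Poly(A) RNA of 8 samples was sequenced. Per the submitters' processing notes, Cufflinks and Cuffdiff were used on GRCm38, along with STAR 2.5.2, Trimmomatic 0.35 and FastQC 0.11.5; their options and roles are not given in the sources used here. For each genotype the authors deposited 1 table. Its FPKM are 1 value per gene and group, pooled by the authors. Its test statistic is a signed score of the authors, and its p-value and q-value are the authors' deposited results for UV against untreated cells. Another deposited table repeats these values for genes in both and was not used.

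Log2 fold changes were computed from the FPKM with no pseudocount, and their SE as the size of the change over the size of the test statistic. Calls need a status of OK and a q of 0.05 or less. The q is the authors' own, except under equal sums and where it is said to be recomputed from the SE. All 156 members were tested in p53CryKO and 155 in p53KO cells, all but Slc22a23. The smallest p of the authors' test is 5e-05. The difference test was tested on simulated data with normal noise drawn from these same SE, which does not check the SE. The background is all genes with an FPKM of 1 or more in a group. Roles follow the family number. Spans, exonic lengths and copies came from GENCODE M21 and promoters from RefSeq. Named genes were the largest called rises and falls of each genotype and role, the highest member of each role, the largest genotype ratios and a fixed set, 68 in all; Slc13a4, Slc5a5 and other members in the text beyond these, and the relatives named, were chosen after their values were seen. Members, lists and settings were chosen with earlier results of these data known. Alternatives were other thresholds and minimums, a pseudocount of 1, equal summed coding FPKM and a length trend removed. Python 3.11.15 was used with numpy 2.4.6, scipy 1.17.1, pandas 2.3.3, statsmodels 0.14.6 and matplotlib 3.10.9. Precision is limited by 2 replicates per group, and counting error cannot be given without depths. Values of some members are not reported here.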

Additional observations from a re-analysis of the deposited data

How the results depend on the processing

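No paired analysis was possible because the tables hold 1 pooled value per group and no replicate. Leaving out a replicate was not run for the same reason. The number of members called higher in p53CryKO cells, 21, became 7 with a log2 change of at least 1, 0 with equal summed coding FPKM and 10 with q recomputed from the SE. The number lower, 74, became 48 with a log2 change of at least 1 and 119 with equal sums. With an FPKM minimum of 5 it was 42 of the 94 members left. The share of all genes called lower at that minimum was not computed. In p53KO cells the number higher, 18, became 9 at q of 0.01, 7 with a log2 change of at least 1, 3 with equal sums and 8 with q recomputed. The number lower, 79, became 46 of the 94 members left at the minimum of 5. The median of -0.47 in p53CryKO cells became -0.37 at the minimum of 5 and -1.50 with equal sums. The median of -0.70 in p53KO cells became -1.71 with equal sums, -0.53 with a pseudocount of 1 and -0.51 with a length trend removed. Counts with equal sums also rest on a q recomputed from the SE, so they differ from the main counts in test and scaling. The recomputed q without rescaling and the setting without the 14 members with copies or same-strand overlaps were added after seeing the data. The number whose response differed between genotypes was 0 under all 4 alternatives, with 4 to 8 members at an unadjusted p under 0.05.

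Equal sums, by construction, reversed 17 named rises. In p53CryKO cells the log2 fold change became -0.27 for Slc25a20, -0.58 for Slc25a3, -0.43 for Slc25a4, -0.048 for Slc25a5, -0.030 for Slc29a1, -0.19 for Slc35c2, -0.28 for Slc48a1, -0.11 for Slc4a2, -0.23 for Slc4a3 and -0.017 for Slc7a3. In p53KO cells it became -0.017 for Slc25a25, -0.43 for Slc25a5, -0.42 for Slc29a1, -0.31 for Slc30a9, -0.26 for Slc48a1, -0.26 for Slc50a1 and -0.024 for Slc7a3. Under equal sums the members called higher in p53KO cells were Slc1a6, Slc35b1 and Slc5a5.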

Other observations

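Of the 196 solute carrier genes under the FPKM minimum, 46 were listed at 0 in all 4 groups. The authors tested 39 of the 196 in p53CryKO and 44 in p53KO cells. Their calls are not given, because the share called among all genes under the minimum was not computed. These genes are outside the counts above.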
